A study of Homo sapiens with 12 samples.

Results

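The 36 genes described here make cholesterol and fatty acids or control the cells' output of them. They were chosen by symbol, as genes of lipid synthesis known to answer to the SREBP transcription factors, and all 36 were found among the 62656 genes of the deposited count table. RNA was sequenced from HCT116 and LoVo, established human colorectal cancer lines, in 12 libraries that fall into 4 groups of 3. Per the labels, these are HCT116 with SLERT overexpression (OE) and its HCT116 control, and LoVo with SLERT knockdown (KD) and its LoVo control. SLERT is a long non-coding RNA that ends in snoRNA sequences. The columns of the HCT116 control are headed as empty vector and those of the LoVo groups as short hairpins, so the controls of the lines differ in construct, and each line is 1 line. The labels are silent on separate cultures within a group, and the p-values therefore rest on a spread between libraries that may be technical.

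As background, cholesterol is built from acetyl-CoA by way of mevalonate, isoprenoid diphosphates, squalene and a long series of changes to the sterol ring. Fatty acids are built from the same acetyl-CoA by carboxylation, chain synthesis, elongation and desaturation. When sterols run low in the endoplasmic reticulum, SCAP escorts the SREBP precursors to the Golgi, where they are cut, and the released fragment turns on the genes of both pathways, while INSIG1 holds SCAP back when sterols are plentiful. Tumour cells, those of the colon included, commonly make fatty acids of their own.

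Total counts ran from 14.46 to 17.23 M per library. No gene symbol stands for SLERT, so the snoRNA SNORA5C and its host gene TBRG4 served as a readout of the locus. SNORA5C summed to 1926 counts in the 3 OE libraries and 16 in the HCT116 control, and TBRG4 was higher with OE by a log2 fold change of 0.66 ± 0.058 (SE; edgeR quasi-likelihood test, adjusted p = 5.24e-08). In LoVo, SNORA5C summed to 37 counts in the libraries labelled KD and 37 in the control, at -0.02 ± 0.44 (edgeR adjusted p = 0.98). TBRG4 gave 0.07 ± 0.061 (edgeR adjusted p = 0.413). SNORA5A, another snoRNA of the locus, summed to 142 counts with OE and 0 in the HCT116 control. In LoVo, SNORA5A summed to 10 counts in the KD libraries and 12 in the control. No fall of SNORA5C or TBRG4 was called in LoVo. None of these genes is SLERT itself, so the knockdown cannot be checked from them. The KD group is named by its label throughout. Summed FPKM of 10 markers of colorectal epithelium lay between 1090 and 1890 in every library, and that of 8 hepatocyte markers at or under 0.635. Of the 10 epithelial markers, 6 passed the filter on low counts in HCT116 and 10 in LoVo, so the sum does not speak for each marker. The 6 adipocyte markers summed to 2.05 to 2.72 FPKM with OE, 2.74 to 2.96 in the HCT116 control, 0.274 to 0.425 in the LoVo libraries labelled KD and 0.407 to 0.730 in the LoVo control, with ADIPOQ and CIDEA at 0 in all libraries. Of these 6, PLIN4 was called lower in the KD libraries at -1.79 (edgeR adjusted p = 0.00561). In LoVo, the epithelial markers summed to 1570 to 1660 FPKM in the libraries labelled KD and 1800 to 1890 in the control, with 3 of the 10 called higher and 6 lower. The 9 fibroblast and endothelium markers summed to 0.511 to 0.681 FPKM in the KD libraries and 2.18 to 2.40 in the control. In HCT116 they summed to 7.82 to 8.51 FPKM with OE and 8.79 to 9.5 in the control. Of these 9, COL3A1 alone was called in LoVo, at -2.57 (edgeR adjusted p = 7.08e-11). The part of these markers in the LoVo results was not tested.

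Promoter sequence is shown for 5 of the genes, because most of these promoters share a short sequence, the CCAAT box, that binds the factor NF-Y, a known partner of the SREBPs. The windows run from 250 bases before to 50 bases after the RefSeq start on GRCh38.p14, and 32 of the 36 genes had at least 1. FASN, ACAT2, FDFT1 and SQLE had none. TM7SF2 and MVD are genes that fell in LoVo, MSMO1 and ELOVL5 are genes that rose, and SREBF2 encodes an SREBP itself. Their windows lie at chr11:65111622-65111921 on the plus strand, chr16:88663042-88663341 on the minus strand, chr4:165327419-165327718 on the plus strand, chr6:53348901-53349200 on the minus strand and chr22:41832855-41833154 on the plus strand. Capitals mark CCAAT in either orientation (ATTGG when read on the other strand) and, in SREBF2, an SRE-type sequence.
TM7SF2: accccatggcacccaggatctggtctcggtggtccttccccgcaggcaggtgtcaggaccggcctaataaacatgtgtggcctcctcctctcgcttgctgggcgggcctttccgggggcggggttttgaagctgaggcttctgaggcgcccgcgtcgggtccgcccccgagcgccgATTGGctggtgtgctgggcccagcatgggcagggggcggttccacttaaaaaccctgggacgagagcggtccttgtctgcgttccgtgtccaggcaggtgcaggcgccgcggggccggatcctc
MVD: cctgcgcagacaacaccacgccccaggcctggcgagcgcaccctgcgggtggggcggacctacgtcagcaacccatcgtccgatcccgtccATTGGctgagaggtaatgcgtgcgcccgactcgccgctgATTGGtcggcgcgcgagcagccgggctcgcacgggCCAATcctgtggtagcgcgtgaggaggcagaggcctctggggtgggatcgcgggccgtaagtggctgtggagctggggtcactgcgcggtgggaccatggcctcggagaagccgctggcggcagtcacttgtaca
MSMO1: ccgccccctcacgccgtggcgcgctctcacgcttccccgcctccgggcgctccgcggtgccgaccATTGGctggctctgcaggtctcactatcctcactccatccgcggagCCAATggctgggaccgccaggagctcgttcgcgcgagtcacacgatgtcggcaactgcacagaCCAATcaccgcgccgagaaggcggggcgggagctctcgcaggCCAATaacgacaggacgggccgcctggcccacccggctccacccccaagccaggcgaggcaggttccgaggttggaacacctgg
ELOVL5: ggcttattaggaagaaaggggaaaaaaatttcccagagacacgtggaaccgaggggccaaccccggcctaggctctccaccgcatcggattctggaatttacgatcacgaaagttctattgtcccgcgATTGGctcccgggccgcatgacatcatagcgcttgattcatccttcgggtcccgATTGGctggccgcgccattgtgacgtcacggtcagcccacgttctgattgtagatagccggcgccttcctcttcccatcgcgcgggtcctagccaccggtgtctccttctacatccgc
SREBF2: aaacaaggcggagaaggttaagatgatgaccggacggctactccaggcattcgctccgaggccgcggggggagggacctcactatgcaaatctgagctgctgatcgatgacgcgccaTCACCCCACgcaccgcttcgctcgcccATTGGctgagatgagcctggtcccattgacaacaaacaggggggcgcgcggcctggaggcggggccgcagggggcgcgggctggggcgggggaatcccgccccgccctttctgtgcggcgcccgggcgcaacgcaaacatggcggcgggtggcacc

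CCAAT, searched on both strands, was present in 25 of the 32 genes (78.1%), against 39.7% of the 27305 genes with a window. At least 2 copies stood in 1 window in 16 of the 32 (50%), against 12.9% of all genes. The MSMO1 window holds 4 copies and that of MVD 3. The Sp1 box GGGCGG was present in 30 of the 32 (93.8%), against 48.3%, and the E-box CACGTG in 5 (15.6%), against 8.77%. The SRE-type sequence TCACNCCAC was found in SREBF2 alone among the 32 (3.12%), against 1.39% of all genes, with its first base 133 bases before the start. CCAAT did not divide the genes by their change in LoVo, being present in 7 of the 8 that fell and had a window, all 3 that rose, and 15 of the 21 others. These are matches of letters, not measured binding, and the 27305 genes were not limited to genes expressed here or matched for GC content.

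Levels per length of transcript were compared as deposited FPKM (mean ± SD, n = 3 in each group). FASN, the multidomain enzyme that builds palmitate, and SCD, which puts the first double bond into saturated fatty acids, stood highest in HCT116. SCD had 267 ± 4.71 FPKM with OE and 292 ± 4.81 in the HCT116 control, and FASN had 243 ± 23.9 with OE and 240 ± 18.5 in the control. ACLY, which makes cytosolic acetyl-CoA from citrate, was next at 81.1 ± 3.42 FPKM with OE and 79.9 ± 1.61 in the control. In LoVo the order was FASN, ACLY and SCD, with FASN at 96.7 ± 14.2 FPKM in the libraries labelled KD and 141 ± 8.45 in the LoVo control. ACLY followed at 73.2 ± 4.48 in the KD libraries and 98.9 ± 4.88 in the control, and SCD had 60.0 ± 1.29 in the KD libraries and 58.7 ± 1 in the control.

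SREBF2, the gene of the SREBP mainly tied to cholesterol synthesis, ranked the fourth in all 4 groups, with means from 42.6 to 54 FPKM. SREBF1, tied more to fatty acids, had means from 29.1 to 36.1. The lowest 2 in every group were CYP51A1, which removes a methyl group from lanosterol, at 0.755 to 1.46 FPKM, and FADS2, the delta-6 desaturase of polyunsaturated fatty acids, at 1.10 to 1.66. In LoVo control these 2 lay within their spread of each other. CYP51A1 is uncertain, since 83.2% of its exonic bases in GENCODE v29 also belong to other genes and it has 3 pseudogenes named for it. For ACAT2 the shared part is 52.3%, all of it with genes on the other strand, and FDPS has 8 named pseudogenes. The sources used here do not say whether counting used strand.

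**Figure D1:**
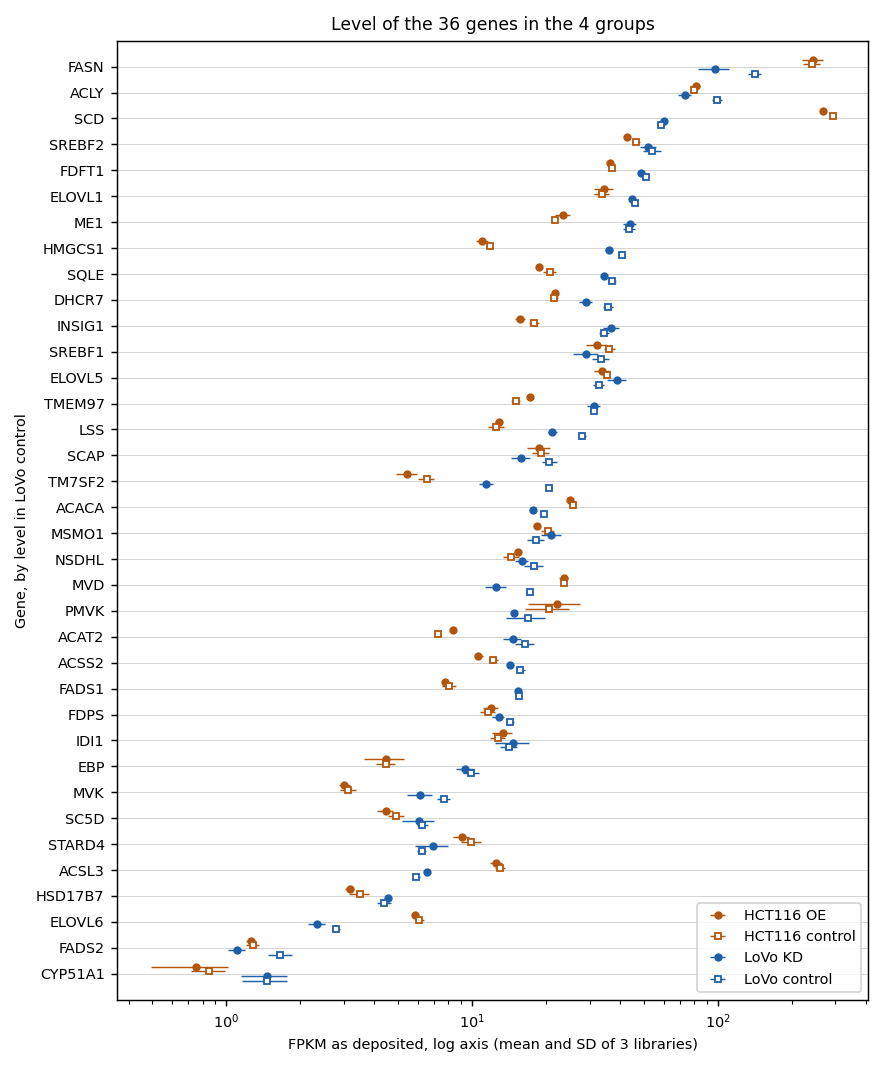
Deposited FPKM of the 36 genes (log axis; mean and SD of 3 libraries) in HCT116 with OE, HCT116 control, LoVo labelled KD and LoVo control, ordered by level in LoVo control. SCD stands at 267 and 292 FPKM in HCT116 with OE and HCT116 control and at 60.0 and 58.7 FPKM in LoVo labelled KD and LoVo control.

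SLERT overexpression in HCT116 changed none of the 36 genes past the threshold. By edgeR's quasi-likelihood F test with Benjamini-Hochberg adjustment over all 15980 genes tested, 0 of 36 were called at an adjusted p under 0.05, against 0.914% of all genes tested (146 of 15980). At an unadjusted p under 0.05 there were 8 of 36, against 2298 of the 15980 genes tested, and DESeq2 also called 0. Log2 fold changes ran from -0.24 to 0.23 with a median of -0.02, and 0 for all genes tested. Libraries of OE and control did not overlap for 8 of the 36, against 3058 of the 15980 genes tested.

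The smallest adjusted p belonged to TMEM97, a sterol-regulated protein that binds the lysosomal cholesterol carrier NPC1. TMEM97 had 49.4, 49.8 and 52.1 normalised read counts per 1e6 (CPM) in the OE libraries, against 45.1, 41.2 and 44.5 CPM in the control. The groups did not overlap, with a log2 fold change of 0.21 ± 0.0715 (SE; edgeR adjusted p = 0.147, not called). SCD had 1400, 1440 and 1400 CPM with OE and 1550, 1520 and 1500 CPM in the control, a log2 fold change of -0.11 with a 95% interval of -0.20 to -0.01. Of FASN the interval was -0.08 to 0.16, of ACLY -0.06 to 0.15 and of SREBF2 -0.21 to 0.01. INSIG1 had 56.6, 61 and 56.1 CPM with OE and 65.8, 66.3 and 61.3 in the control, also without overlap, at -0.16 ± 0.0673 (edgeR adjusted p = 0.274).

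In LoVo, 12 of the 36 genes were called between the libraries labelled KD and the control, 9 of them lower and 3 higher. That is 33.3% called, against 26.3% of the 16253 genes tested. The lower calls were 25% of the members against 13.7% of all genes, and the higher calls 8.33% against 12.6%. The median log2 fold change was -0.09 over the 36 genes and 0 over all genes tested. Libraries of the groups did not overlap for 17 of the 36, against 6456 of the 16253 genes tested. The genes that fell were TM7SF2, FADS2, FASN, MVD, ACLY, LSS, SCAP, MVK and DHCR7, and those that rose were ELOVL5, MSMO1 and ACSL3. With limma on FPKM, 9 were called lower and 0 higher, so all 3 higher calls ended there, as did that of MVK, while HMGCS1 was added. All 9 that fell have GC-rich transcripts and all 3 that rose have GC-poor ones, a property along which these LoVo libraries also differed across all genes.

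**Figure D2:**
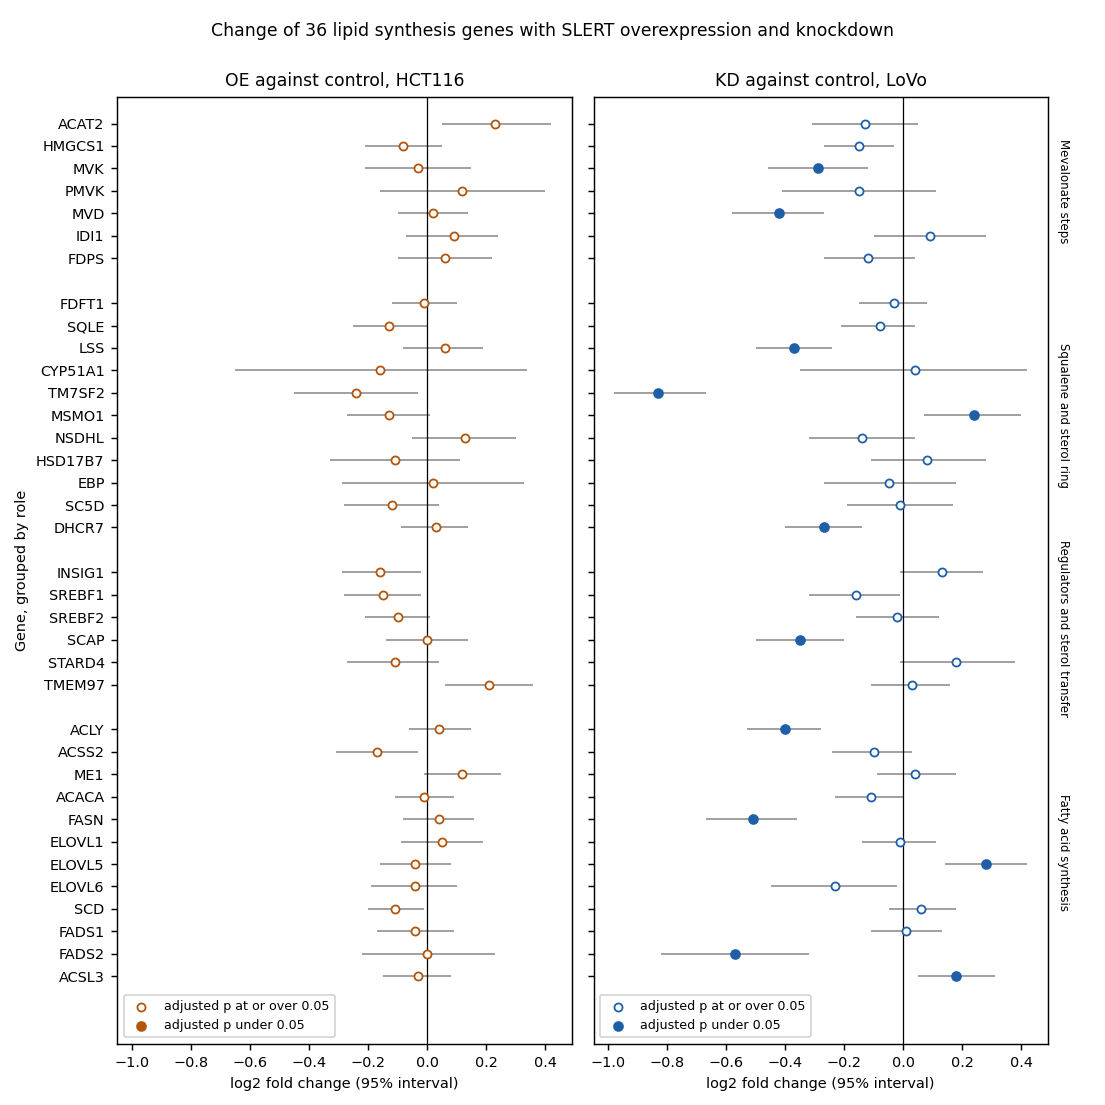
Log2 fold change with its 95% interval for each of the 36 genes, by role, for OE against control in HCT116 (left) and for libraries labelled KD against control in LoVo (right). Filled points have an edgeR adjusted p under 0.05: 0 genes in HCT116 and 12 in LoVo.

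Of the 7 mevalonate genes, 2 were lower in the LoVo libraries labelled KD (28.6%) and 0 higher. Over all genes tested, 13.7% were lower and 12.6% higher. MVD, which decarboxylates mevalonate diphosphate to isopentenyl diphosphate, had 66.5, 55.4 and 56.9 CPM in the KD libraries, against 76.3, 81.4 and 81.5 CPM in the control. Every KD library lay under every control library, and MVD was 1.34-fold lower, with a log2 fold change of -0.42 ± 0.0749 (SE; edgeR adjusted p = 0.000223). MVK, mevalonate kinase, had 62.1, 48.8 and 56.8 CPM in the KD libraries, against 71.3, 63.6 and 70.4 CPM in the control, at -0.29 ± 0.0818 (edgeR adjusted p = 0.0102). Its groups came close to each other, and it was no longer called without the KD library Sh2 (-0.20) or without either of 2 control libraries. HMGCS1, the synthase that feeds the pathway, did not pass the test at -0.15 (edgeR adjusted p = 0.0584). PMVK, IDI1, FDPS and ACAT2, the other enzymes of this stretch, ran from -0.15 to 0.09.

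Of the 11 genes from squalene to cholesterol, 3 were lower and 1 higher in the KD libraries. That is 27.3% and 9.09%, against 13.7% and 12.6% of all genes tested. TM7SF2, a sterol C14-reductase of the endoplasmic reticulum and inner nuclear membrane, fell furthest of the 36. It had 41.8, 36.6 and 39.6 CPM in the KD libraries, against 71.4, 69.3 and 68.3 CPM in the control. The gap between the groups was several times the spread within either, a 1.77-fold lower level and a log2 fold change of -0.83 ± 0.0741 (SE; edgeR adjusted p = 1.71e-08). LSS, which closes squalene epoxide into lanosterol, had 159, 147 and 160 CPM in the KD libraries, against 191, 204 and 207 CPM in the control, at -0.37 ± 0.061 (edgeR adjusted p = 9.44e-05). DHCR7, the reductase at the end of the Kandutsch-Russell route to cholesterol, had 215, 189 and 201 CPM in the KD libraries, against 249, 229 and 249 CPM in the control, at -0.27 ± 0.0624 (edgeR adjusted p = 0.00283). Neither gene's groups overlapped.

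MSMO1, the C4-methylsterol oxidase, rose between these steps. It had 54.6, 64.2 and 63.3 CPM in the KD libraries, against 48.4, 56 and 50.3 CPM in the control, and the lowest KD library lay under the highest control library. Its log2 fold change was 0.24 ± 0.0799 (SE; edgeR adjusted p = 0.0315), and leaving out either of 2 KD or 2 control libraries ended the call. The 7 others, FDFT1, SQLE, CYP51A1, NSDHL, HSD17B7, EBP and SC5D, ran from -0.14 to 0.08 and none was called.

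Of the 6 regulators and sterol transfer proteins, SCAP fell (16.7%, against 13.7% of all genes lower) and the others were not called. SCAP had 110, 92 and 99.2 CPM in the KD libraries, against 136, 118 and 131 CPM in the control. The groups did not overlap, at a log2 fold change of -0.35 ± 0.0725 (SE; edgeR adjusted p = 0.000937). SREBF2 gave -0.02 with a 95% interval of -0.16 to 0.12, and SREBF1 gave -0.16 (edgeR adjusted p = 0.112). INSIG1 had 126, 146 and 136 CPM in the KD libraries, against 118, 130 and 125 CPM in the control, with overlap, at 0.13 ± 0.0666 (edgeR adjusted p = 0.163). STARD4, a carrier of sterol between membranes, gave 0.18 and TMEM97 0.03, neither called.

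Of the 12 fatty acid genes, 3 fell (25%, against 13.7% of all genes) and 2 rose (16.7%, against 12.6%). FASN had 1020, 761 and 958 CPM in the KD libraries, against 1350, 1210 and 1350 CPM in the control. The KD library Sh2 lay well under its fellows, and all 3 lay under the control, 1.43-fold lower at a log2 fold change of -0.51 ± 0.0752 (SE; edgeR adjusted p = 2.39e-05). ACLY had 405, 359 and 395 CPM in the KD libraries, against 533, 484 and 516 CPM in the control, at -0.40 ± 0.0595 (edgeR adjusted p = 2.65e-05). FADS2 had 12.7, 10.8 and 11.6 CPM in the KD libraries, against 19.5, 16.7 and 15.9 CPM in the control, 1.48-fold lower at -0.57 ± 0.119 (edgeR adjusted p = 0.00103). These genes act at the supply of acetyl-CoA, the synthesis of the chain and the desaturation of long chains.

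ELOVL5, the elongase of polyunsaturated fatty acids, rose. It had 138, 163 and 148 CPM in the KD libraries, against 123, 130 and 118 CPM in the control, without overlap, at 0.28 ± 0.0678 (SE; edgeR adjusted p = 0.00402). With limma on log2(FPKM + 1) and log2(FPKM + 0.1) it was not called, at 0.24 each (limma adjusted p = 0.0522 and 0.0509). ACSL3, which joins fatty acids to coenzyme A at lipid droplets, had 94.3, 97.2 and 96.7 CPM in the KD libraries, against 83.1, 88.2 and 83.3 CPM in the control. These groups were apart but close, at 0.18 ± 0.0638 (edgeR adjusted p = 0.041), and DESeq2 or leaving out any of 4 libraries ended the call. Not called were ACACA, the first committed enzyme of fatty acid synthesis, at -0.11 (edgeR adjusted p = 0.146) and ELOVL6, the elongase of palmitate, at -0.23 (edgeR adjusted p = 0.0955). SCD gave 0.06 with a 95% interval of -0.05 to 0.18, and FADS1, the delta-5 desaturase encoded beside FADS2, gave 0.01 with an interval of -0.11 to 0.13. ACSS2, ME1 and ELOVL1 ran from -0.10 to 0.04.

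**Figure D3:**
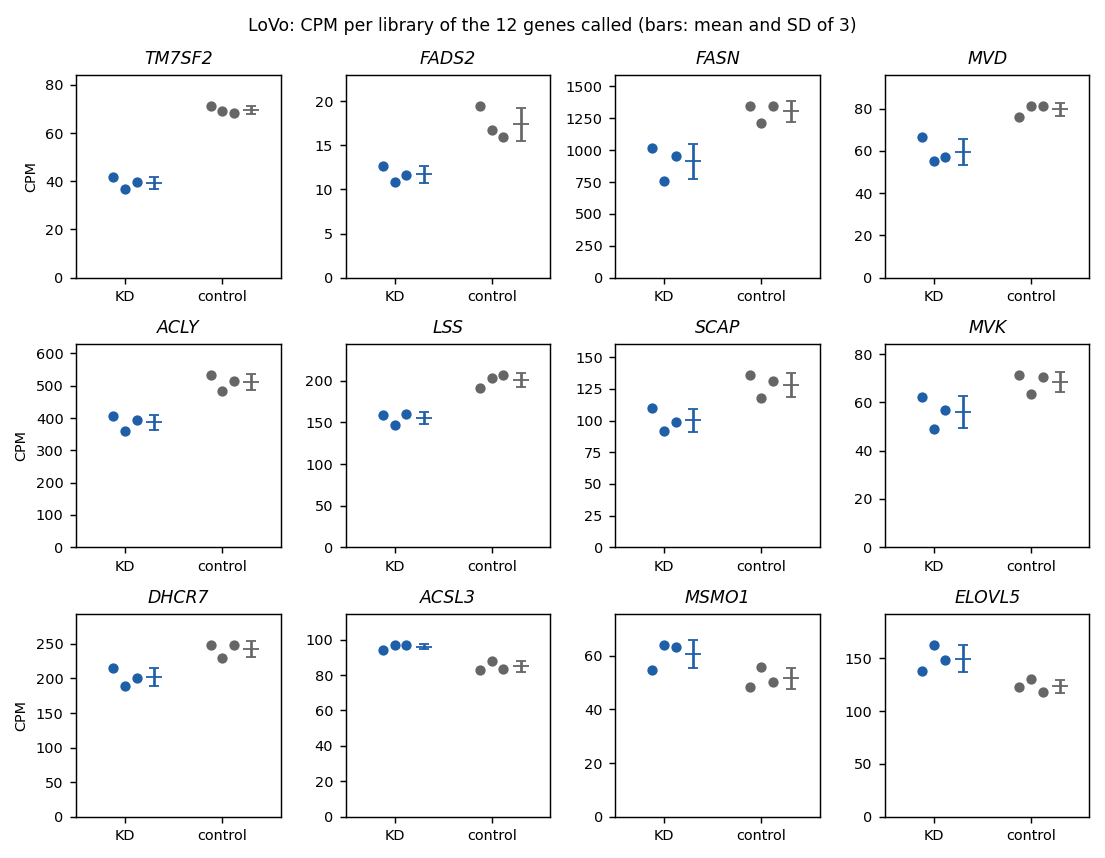
CPM in each LoVo library labelled KD (left of each panel) and in each control library (right) for the 12 genes called, with mean and SD of 3 beside the points. TM7SF2 lies between 36.6 and 41.8 CPM in the KD libraries and between 68.3 and 71.4 CPM in the control, and for MSMO1 the groups overlap.

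The 36 genes together held 0.520%, 0.488% and 0.518% of all counts in the LoVo libraries labelled KD, against 0.605%, 0.577% and 0.598% in the LoVo control. Every KD library lay under every control library. Fatty acid genes were the largest part, with 0.243% to 0.268% in the KD libraries and 0.303% to 0.323% in the control. Such a sum is weighted to abundant genes. FASN had a mean of 913 CPM in the KD libraries and 1300 in the control, and ACLY 387 and 511. The change of FASN shrank from -0.51 to -0.23 with the GC content offset described below. Mevalonate and sterol ring shares were also lower in every KD library, while regulator shares overlapped. The HCT116 shares overlapped, at 0.723%, 0.680% and 0.691% with OE, against 0.739%, 0.727% and 0.694% in the control. Less RNA per cell and fewer cells of a kind cannot be told apart in such bulk libraries.

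The change in LoVo followed the base composition of the transcripts, among these genes and among all genes. Across the 36 genes the log2 fold change had a Pearson r of -0.73 and a Spearman rho of -0.758 with the GC content of their transcripts in GENCODE v29. Across 15771 genes the values were -0.348 and -0.46. Genes are not independent replicates, so these describe the trend. Transcripts of the 9 genes that fell had 53.2% to 65.3% GC, and those of the 3 that rose 38.6% to 42.9%. Among the 3154 genes richest in GC, with 58.4% or more, 36.9% were called lower, and so were 6 of the 8 members in that range. Among the 3155 poorest, with up to 42.2%, 24.1% were called higher and 2.54% lower, and of the 8 members there 2 were higher and 0 lower. In HCT116 the trend between OE and control was weak, with an r of -0.0374 over all genes and 0.119 over the members.

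The libraries of the same LoVo group also differed along this axis. Across genes, the deviation of a library from the LoVo mean had an r with GC content of -0.00553, -0.466 and -0.243 in Sh1, Sh2 and Sh3, the libraries labelled KD, against 0.345, 0.133 and 0.29 in ShNC1, ShNC2 and ShNC3, the control libraries. Sh2, with the lowest value, is also the library with the lowest CPM of all 9 genes that fell. The trend therefore ran within the KD group as well as between the groups. The same measure in HCT116 was 0.0968, -0.229 and 0.071 in OE1, OE2 and OE3, against 0.101, -0.0939 and 0.0589 in Vector1, Vector2 and Vector3. The part of the trend in the LoVo results was measured with a fit, added after seeing the data, that removes each library's smooth trend with GC content.

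With that offset, 13 of the 36 genes were called in LoVo, 12 of them lower and 1 higher, against 10.7% lower and 10.9% higher over all genes tested. Of the 12 first called, 8 kept their call in the same direction. TM7SF2 gave -0.58 (edgeR adjusted p = 5.92e-09), FADS2 -0.44, ACLY -0.35, FASN -0.23, LSS -0.22, SCAP -0.15 and DHCR7 -0.13, and ELOVL5 gave 0.15 (edgeR adjusted p = 0.0199). FASN, LSS, SCAP, DHCR7 and ELOVL5 thus moved by over 1.5 times on the log2 scale, while ACLY, at 53.2% GC, moved little. Calls ended for MVD at -0.16 (edgeR adjusted p = 0.0598), MVK at -0.11, MSMO1 at 0.07 and ACSL3 at 0.03.

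The offset added 5 genes, all lower in the libraries labelled KD. They were ELOVL6 at -0.36, HMGCS1 at -0.29, SQLE, the squalene epoxidase, at -0.21, SC5D, a sterol desaturase, at -0.18 and ACACA at -0.15. These have transcripts of 37.4% to 48.5% GC. Without the offset none of them was called. ELOVL6, HMGCS1 and ACACA then gave -0.23, -0.15 and -0.11. SQLE gave -0.08 ± 0.0597 (SE) and SC5D -0.01 ± 0.0862. The value of SC5D, the member with 37.4% GC, therefore came almost wholly with the offset. The r with GC content across the 36 genes was -0.176 with the offset. An offset of this kind also takes out any true change that runs with GC content, so both sets of values are given.

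**Figure D4:**
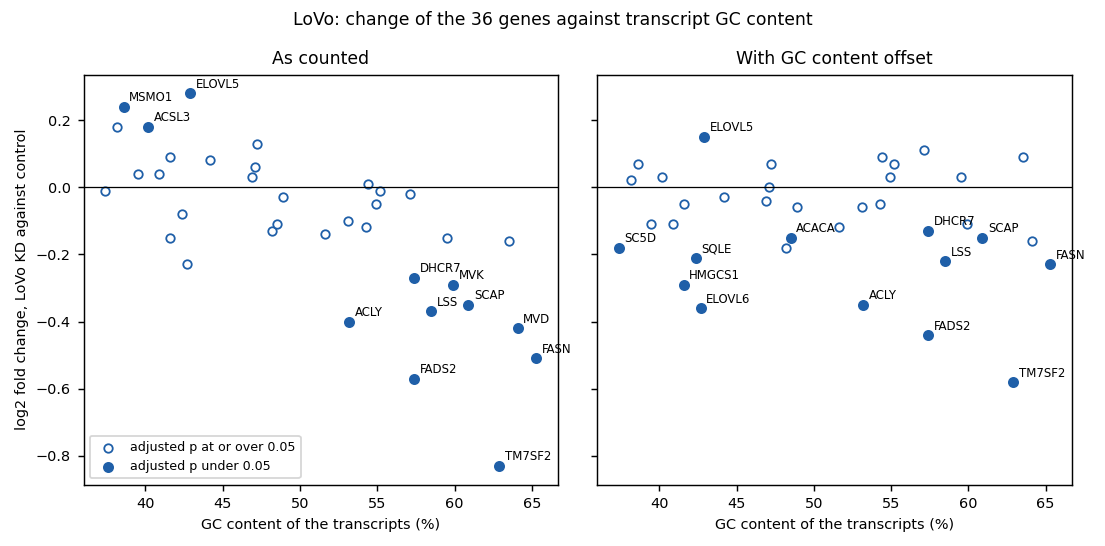
Log2 fold change in LoVo (libraries labelled KD against control) over transcript GC content for the 36 genes, as counted (left) and with the GC content offset (right). Filled points have an edgeR adjusted p under 0.05; the r with GC content is -0.73 on the left and -0.176 on the right, and TM7SF2 is lowest on both sides.

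Whether the log2 fold change in LoVo (labelled KD against control) differed from that in HCT116 (OE against control) was tested directly in 1 edgeR fit of all 12 libraries. It differed for 11 of the 36 genes, or 30.6%, against 11.6% of the 18199 genes tested. Of these, 8 differences were negative (22.2%, against 6.03% of all genes) and 3 positive (8.33%, against 5.62%). The negative ones were TM7SF2, FADS2, FASN, ACLY, MVD, LSS, SCAP and DHCR7, all lower in the libraries labelled KD and with no call in HCT116. The positive ones were MSMO1, ELOVL5 and INSIG1, and 0 positive differences were called with limma or without any 1 of OE1, OE3, Sh2 and ShNC3. The calls of MSMO1 and SCAP each ended without 7 of the 12 libraries, left out in turn, and with limma, that of ELOVL5 without 4 and with limma, and that of DHCR7 without 3. FADS2 lost its call without ShNC1 and with limma on log2(FPKM + 0.1). TM7SF2, FASN, ACLY, MVD and LSS kept theirs without any 1 library and with limma. MVK and ACSL3, called in LoVo, did not differ past the threshold, at -0.25 (edgeR adjusted p = 0.205) and 0.23 (edgeR adjusted p = 0.0684).

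The HCT116 values of these genes sat close together between OE and control. TM7SF2 had 19.3, 16.6 and 20.2 CPM with OE, against 22.5, 20.2 and 23.6 CPM in the control, lower on average as in LoVo, and the groups overlapped at 20.2 CPM. FASN had 2530, 2080 and 2260 CPM with OE, against 2360, 2290 and 2040 CPM in the control. ACLY had 437, 405 and 437 CPM with OE, against 422, 412 and 407 CPM in the control. The groups overlapped for both.

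FADS2 had 14.1, 13.1 and 13.2 CPM with OE, against 13.6, 14.1 and 12.6 CPM in the control. MVD had 114, 107 and 116 CPM with OE, against 114, 108 and 111 CPM in the control. LSS had 92.8, 90.3 and 97.8 CPM with OE, against 85.3, 86.8 and 98 CPM in the control. The groups overlapped for each of these. SCAP had 132, 108 and 115 CPM with OE, against 126, 121 and 109 CPM in the control. DHCR7 had 147, 151 and 154 CPM with OE, against 153, 143 and 147 CPM in the control, and MVK had 28.6, 27.8 and 26 CPM with OE, against 25.6, 28.9 and 29.8 CPM in the control. All overlapped as well.

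Among the genes that rose in LoVo, MSMO1 had 51.3, 54.5 and 52 CPM with OE, against 54, 60.6 and 57.9 CPM in the HCT116 control, overlapping by a narrow margin. ELOVL5 had 124, 141 and 125 CPM with OE, against 133, 135 and 132 CPM in the control, and ACSL3 had 175, 193 and 178 CPM with OE, against 184, 195 and 180 CPM in the control. Both overlapped. INSIG1 was called only in the test of the difference, at 0.30 ± 0.0926 (SE; edgeR adjusted p = 0.0331). It combines the values of 0.13 in LoVo and -0.16 in HCT116, neither called by itself. The call ended without 8 of the 12 libraries, left out in turn, with no filter on low counts and with limma on either scale (limma adjusted p = 0.0815 and 0.0865).

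With the GC content offset, 11 genes differed again between the lines, 3 positive and 8 negative, against 4.71% positive and 5.40% negative over all genes. Of the 11 first called, 5 kept their call, namely ACLY at -0.39 (edgeR adjusted p = 2.72e-05), TM7SF2 at -0.36, FASN at -0.29, LSS at -0.28 and ELOVL5 at 0.20. MVD, FADS2, SCAP, DHCR7, MSMO1 and INSIG1 lost theirs. The offset added ACAT2 at -0.41, TMEM97 at -0.24, ME1, the cytosolic source of NADPH, at -0.22 and HMGCS1 at -0.20 as negative differences, and SREBF1 at 0.22 and SREBF2 at 0.20 as positive ones.

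The lines themselves differed in more of the genes than either manipulation changed. In LoVo control against HCT116 control, 33 of the 36 genes were called (91.7%, against 76.6% of 18199 genes), 22 higher in LoVo (61.1%, against 37.9%) and 11 lower (30.6%, against 38.7%). With the GC content offset 29 of the 36 were called, against 78.1% of the 18199 genes. Of the 36, 19 were then higher in LoVo and 10 lower, against 38% and 40.1% of all genes. Sterol ring genes leaned to LoVo, with 10 of 11 higher there and MSMO1 lower at -0.26 (-0.08 and not called with the offset). With that offset 9 of the 11 sterol ring genes were higher and 0 lower, NSDHL no longer being called (0.09). For the fatty acid genes 6 were higher and 6 lower, and 4 and 6 with the offset, where ACLY (0.08) and FADS2 (0.17) lost their calls.

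SCD differed most, at 295 ± 4.6 CPM in LoVo control and 1570 ± 27.2 CPM in HCT116 control (SD, n = 3 each, scaled over the 12 libraries), a log2 fold change of -2.42 ± 0.0476 (SE; edgeR adjusted p = 3.8e-27). ELOVL6 and ACSL3 were lower in LoVo at -1.23 each, FASN at -0.87, STARD4 at -0.78, MVD at -0.57 and ACACA at -0.50. HMGCS1 led the genes higher in LoVo, at 258 ± 8.89 CPM in LoVo control and 80.5 ± 0.513 CPM in HCT116 control, or 1.68 ± 0.0568 (edgeR adjusted p = 2.19e-21). TM7SF2 followed at 1.56, MVK at 1.19, ACAT2 at 1.08, LSS at 1.06 and EBP, the sterol isomerase, at 1.05. IDI1, SREBF2 and SCAP were not called, at 0.05, 0.12 and 0.01. With 1 line each, and controls of different construct, these differences describe these cultures.

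Of the tested genes of 6 lists around the pathway, 2 of 109 were called in HCT116 with OE (1.83%, against 0.914% of all genes) and 32 of 107 in the LoVo libraries labelled KD (29.9%, against 26.3%). Among 13 genes of SREBP activation and degradation, TRIB1, a pseudokinase that steers ubiquitination, was lower with OE in HCT116 at -0.26 ± 0.053 (SE; edgeR adjusted p = 0.0116) and higher in the LoVo libraries labelled KD at 0.44 ± 0.062 (edgeR adjusted p = 1.36e-05). The difference of 0.72 was itself called (edgeR adjusted p = 2.08e-07), and the LoVo value with the GC content offset was 0.46. No other gene of that list was called in either line. AGPAT4, a lysophosphatidate acyltransferase, was lower with OE at -0.35 ± 0.071 (edgeR adjusted p = 0.0122), and these were the 2 calls in HCT116.

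In LoVo, 4 of 13 isoprenoid genes were higher in the libraries labelled KD and 0 lower, led by RABGGTB, a subunit of the enzyme that prenylates Rab proteins, at 0.34 and COQ2, of coenzyme Q synthesis, at 0.33. With the offset 3 were higher. Among 14 tested genes of cholesterol uptake, transfer, esterification and efflux, 2 were higher and 3 lower. They include MYLIP, a ubiquitin ligase induced by liver X receptors, at 0.81, and the lysosomal cholesterol carrier NPC2 at -0.37, the lysosomal acid lipase LIPA at -0.29 and the HDL receptor SCARB1 at -0.30. These 4 kept their calls with the offset, at 0.77, -0.38, -0.42 and -0.17.

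Among 21 other genes of fatty acid synthesis, activation and elongation, 8 were higher and 3 lower in the libraries labelled KD, and 6 and 1 with the offset. The elongase ELOVL7 rose at 0.61 and the acyl-CoA synthetases ACSL1 and ACSL5 at 0.53 and 0.34. The mitochondrial citrate carrier SLC25A1, of 66.2% GC, gave -0.34, and -0.04 with the offset. Fatty acid oxidation had 4 of 24 higher and 2 lower, and 4 and 0 with the offset. ETFA, an electron carrier subunit, was at 0.31 and kept its call, at 0.19 with the offset. ACADS at -0.41, ACOX3 at -0.33 and HSD17B4 at 0.24 lost theirs, at -0.13, -0.23 and 0.11 with the offset. Glycerolipid synthesis and lipid droplets had 2 of 22 higher and 3 lower with either fit, though not all the same genes. The acyltransferase GPAT3 at 0.55 and the droplet coat protein PLIN3 at -0.53 kept their calls. PNPLA2, of 64.9% GC, had the smallest adjusted p of that list at -0.42. It lost its call with the offset, at -0.14 (edgeR adjusted p = 0.104). All of these shares stand beside 12.6% of all genes higher and 13.7% lower in LoVo, and 10.9% and 10.7% with the offset.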

How the data were processed

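RNA was sequenced from 12 libraries, 3 in each of 4 groups, with total RNA and a TruSeq kit per the labels' protocols, which also mention retinas and were not relied on for the tissue. The deposited read counts are whole numbers, not normalised, and the authors' deposited FPKM values give levels per length. The submitters' processing notes name HISAT2 2.1.0 and GRCh38, and the sources used here give neither the counter nor its use of strand. Library totals ran from 14.46 to 17.23 M. No 2 libraries of a group agreed within sampling noise (chi-square per degree of freedom 2.48 to 7.33), so each counted as 1 replicate.

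Each line was tested with edgeR 4.0.16 in R 4.3.3 (quasi-likelihood F test, TMM factors, filterByExpr, Benjamini-Hochberg adjustment over all genes tested, calls at an adjusted p under 0.05). The difference between the lines' changes and the baseline came from 1 fit of 12 libraries. The filter left 15980 genes in HCT116, 16253 in LoVo and 18199 in the joint fit, and all 36 members passed each. The biological coefficient of variation common to all genes was 6.00% in HCT116 and 6.41% in LoVo. CPM are scaled by TMM within each fit, so those of the joint fit differ a little. The code was tested on simulated data. Alternatives were DESeq2 1.42.0, limma 3.58.1 on log2(FPKM + 1) and log2(FPKM + 0.1), other factors, no filter, a replicate block, all 12 libraries, robust dispersions and leaving out each library, plus, added after seeing the data, a per-library offset that follows transcript GC content (lowess span 0.3). Symbols, coordinates and GC content come from GENCODE v29, promoters from RefSeq.

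The members and all lists were chosen with earlier results of these data known. All 36 members are accounted for; values in every library are printed for those called with OE, with KD or in their difference, and at most 4 called genes of each other list are named, by smallest p. The library of each HCT116 control column is known only as to group. The set was not tested as a set.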

Additional observations from a re-analysis of the deposited data

Results flagged for a closer look

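The change in the LoVo libraries labelled KD and the change in HCT116 with OE differed for 11 of the 36 genes. That is 30.6%, against 11.6% of the 18199 genes tested. Negative differences were 22.2%, against 6.03% of all genes, and positive ones 8.33%, against 5.62%. The difference itself was tested (edgeR quasi-likelihood test, all 12 libraries in 1 fit, adjusted p under 0.05). The log2 differences, LoVo minus HCT116, were -0.57 for TM7SF2, -0.56 for FADS2, -0.54 for FASN, -0.43 for ACLY, -0.42 for MVD, -0.41 for LSS, -0.34 for SCAP and -0.28 for DHCR7. They were 0.38 for MSMO1, 0.33 for ELOVL5 and 0.30 for INSIG1. None of the 11 was called in HCT116. The 3 positive calls all ended with limma, and without 7 (MSMO1), 4 (ELOVL5) or 8 (INSIG1) of the 12 libraries left out in turn, and that of SCAP ended with limma and without 7. The manipulations are opposite in sign and were made in different lines, so the line and the manipulation cannot be told apart. The trend of the LoVo libraries with GC content moves with these values, and with its offset TM7SF2, FASN, ACLY, LSS and ELOVL5 kept the call and the 6 others did not.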

How the results depend on the processing

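With OE, 0 of the 36 genes were called under every alternative run. With KD, the members called were 11 to 12 with other factors, DESeq2, no filter and all 12 libraries, 9 with limma on either FPKM scale (9 lower and 0 higher), 13 with the GC content offset and 9 to 15 with 1 library left out (9 without ShNC1 or ShNC3, 15 without Sh1). No member called changed direction in any alternative. MVK, MSMO1 and ACSL3 lost their call without 3, 4 and 4 of the 6 libraries. The same-numbered LoVo libraries correlated weakly, at 0.051, 0.0604 and 0.0153. Yet each library correlated best with its own number, a hint of pairing from the data only. The replicate block gave 16 members and 5588 genes called, against 12 and 4278 without it. In HCT116 no paired analysis was possible because the control columns cannot be tied to single libraries. The members whose change differed between lines numbered 7 with limma on log2(FPKM + 0.1) and 6 to 12 with 1 library left out (6 without ShNC3; 7 without Vector2, OE1 or OE3), and those called between the controls 29 to 33. Over all genes, calls with OE were 256 with no filter, 7 with limma on either scale, 466 with the GC content offset and 37 to 287 with 1 library left out. With KD they were 2845 with limma on log2(FPKM + 1), where 34% were higher against 47.9% by edgeR, and 2769 to 4813 with 1 library left out. Differences between lines numbered 1465 to 2625, with 36.9% and 38.8% higher by limma against 48.2%, and calls between the controls 13624 to 14329. The share higher with OE was 41.8% with upper quartile factors and 44% with all 12 libraries, against 55.5%. Limma on log2(FPKM + 0.1) moved the median of all genes to 0.105 between the controls. Depth limits CYP51A1, with 32 to 113 counts per library.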
